A study of Mus musculus with 16 samples.

Results

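The genes described here are 8 interferon-induced genes of the mouse: Sp100, Sp110, Sp140 and Pml, whose proteins belong to or resemble those of nuclear bodies, and Parp9, Parp12, Parp14 and Dtx3l, which act in ADP-ribosylation. They were taken by their symbols, and all 8 were found among the 18480 entries of each library. Expression was measured in 16 RNA libraries from tumours of MC38, a mouse colon carcinoma line, grafted subcutaneously. The labels give 4 groups of 4 libraries, exercise with anti-PD-L1 (called the combination here), anti-PD-L1 alone, exercise alone, and control. PD-L1 is the ligand of PD-1 through which tumour and myeloid cells restrain T cells. The title of the series names PD-1 blockade and the sample labels name anti-PDL1, which is followed here. All groups carried the same grafted line, while the mouse strain and age, the training schedule, the antibody dose and what the controls received were not found in the labels.

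PML is the scaffold of PML nuclear bodies, protein assemblies in the nucleus that hold SP100 and many SUMO-modified proteins, and interferons raise the transcription of both genes. SP110 and SP140 are relatives of SP100 that bind chromatin, and SP140 is known in mice to restrain type I interferon. PARP12 and PARP14 attach single ADP-ribose units to proteins, and PARP9 forms a complex with DTX3L, a ubiquitin ligase. In tissue under interferon these genes are part of the wider program that the interferon regulatory factors help to drive.

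Sp110, Sp140 and Sp100 lie side by side on chromosome 1, at chr1:85570735-85610850, chr1:85587491-85645040 and chr1:85649948-85709998 in the RefSeq annotation of GRCm38.p6. Parp14, Dtx3l and Parp9 lie together on chromosome 16, at chr16:35831892-35871518, chr16:35926515-35939027 and chr16:35938470-35972621. Dtx3l and Parp9 run in opposite directions and overlap by 558 bases at their starts. Sp110, on the minus strand, and Sp140, on the plus strand, also overlap in this annotation. Their overlap is much longer, from base 85587491 to base 85610850, and takes in more than the first part of Sp140. No source states whether the counting used strand, so reads from the overlaps cannot be told apart. Pml lies at chr9:58217179-58249796 and Parp12 at chr6:39086412-39118349.

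The 4 nuclear body genes are shown by the bases around a RefSeq start of each. They include Sp140, which had the clearest change, and they lie, but for Pml, next to each other. Each stretch holds 100 bases before the start and 20 from it on, on the strand of the gene, in the order Sp100 (chr1:85649888-85650007, plus strand), Sp110 (chr1:85598791-85598910, minus strand), Sp140 (chr1:85600603-85600722, plus strand) and Pml (chr9:58249767-58249886, minus strand). Capitals mark GAAA, 3 bases of any kind and GAAA again, as read on the opposite strand.
Sp100: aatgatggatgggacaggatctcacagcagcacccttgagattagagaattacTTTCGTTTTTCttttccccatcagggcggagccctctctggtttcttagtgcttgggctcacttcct
Sp110: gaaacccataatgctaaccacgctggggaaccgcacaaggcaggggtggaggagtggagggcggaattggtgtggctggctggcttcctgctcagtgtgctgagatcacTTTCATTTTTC
Sp140: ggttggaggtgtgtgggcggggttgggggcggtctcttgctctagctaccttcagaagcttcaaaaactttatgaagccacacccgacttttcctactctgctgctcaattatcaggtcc
Pml: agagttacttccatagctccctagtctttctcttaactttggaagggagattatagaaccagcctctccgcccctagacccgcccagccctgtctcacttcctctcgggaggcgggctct

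Sp100 and Sp110 shared a run of 18 bases with a single mismatch, ACTTTCGTTTTTCTTTTC in Sp100 and ACTTTCATTTTTCTTTTC in Sp110. It began at position -49 from the start in Sp100 and at position 8 in Sp110. On both strands of the 300-base promoters this pattern of GAAA repeated after 3 bases, chosen after the sequences were read, was present in Sp100 and Sp110 and in 2.75% of all 32851 RefSeq promoters. The usual core of the interferon-stimulated response element, GAAA repeated after 2 bases, was in 3.44% of all promoters, and the STAT pattern TTCNNNGAA was in 8.3%. Neither was present in the promoters of the 6 members that the table lists, which says only that these letters are not in these windows. Promoters of Parp9 and Parp14 were not used here.

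Levels are given as FPKM, a count of fragments divided by transcript length and by the mapped total, so that they can be compared between genes. The sum over all entries was 478672 to 529732 FPKM in a library, and the number of reads behind a value is unknown. All 8 genes were above 4 FPKM in each of the 16 libraries, so the filter on low values removed none of them. Over the 16 libraries the mean levels were 26.8 FPKM for Sp100, 24.4 for Pml, 17.5 for Sp140, 16.5 for Parp12, 16.3 for Sp110, 15.5 for Parp9, 12.3 for Dtx3l and 9.50 for Parp14. Controls 1 and 2 stood apart on the first principal component of all tested genes, control 1 at -30.8 and control 2 at -41.4, where the other libraries lay between -17.0 and 26.3. Comparisons with control are therefore also given without both. Krt8, Krt18 and Epcam, 3 of the 5 epithelial markers with an entry, were under 1 FPKM in each library, although MC38 is a carcinoma line. The other 2 were higher in some or all libraries. Cdh1 lay between 1.24 and 3.05 FPKM, and Krt19 reached 4.87 FPKM in a control and averaged 0.14 FPKM in exercise tumours.

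Sp140 had the clearest difference between groups. It measured 27.76, 14.11, 14.05 and 22.23 FPKM in the combination libraries 1 to 4, and 32.61, 24.08, 20.03 and 25.82 FPKM in the anti-PD-L1 libraries. It measured 10.23, 14.74, 14.41 and 19.01 FPKM in the exercise libraries and 8.54, 8.54, 10.06 and 13.25 FPKM in the controls. All anti-PD-L1 libraries were higher than all exercise and control libraries, and all combination libraries were higher than all controls.

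Sp110 measured 24.30, 10.26, 12.06 and 21.70 FPKM with the combination, and 37.75, 22.13, 15.51 and 15.79 FPKM with anti-PD-L1. It measured 8.89, 13.51, 14.97 and 21.53 FPKM with exercise and 9.16, 9.25, 10.99 and 12.29 FPKM in control. The anti-PD-L1 libraries all lay above the controls, while the combination and exercise libraries overlapped with both. Sp100 measured 36.02, 16.67, 21.34 and 29.75 FPKM with the combination, and 56.98, 34.01, 19.05 and 25.13 FPKM with anti-PD-L1. It measured 15.23, 25.80, 28.81 and 40.84 FPKM with exercise and 13.47, 18.15, 22.26 and 25.08 FPKM in control. All 4 groups of Sp100 overlapped, and the highest exercise library exceeded all but 1 of the antibody libraries.

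Pml varied least. It measured 29.06, 23.71, 22.63 and 31.14 FPKM with the combination, and 32.11, 27.88, 28.59 and 19.74 FPKM with anti-PD-L1. It measured 22.98, 23.14, 19.56 and 23.19 FPKM with exercise and 18.52, 18.02, 25.38 and 25.20 FPKM in control. Its highest value was 1.78 times its lowest, where this ratio was between 2.80 and 5.82 in the other 7 genes.

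Dtx3l, the ubiquitin ligase, measured 16.64, 8.80, 9.86 and 11.92 FPKM with the combination, and 28.82, 17.09, 10.45 and 14.58 FPKM with anti-PD-L1. It measured 6.21, 10.57, 14.23 and 15.54 FPKM with exercise and 6.61, 5.68, 9.48 and 9.81 FPKM in control. The anti-PD-L1 libraries all lay above the controls. Parp9, its partner, measured 22.40, 11.03, 11.58 and 17.40 FPKM with the combination, and 37.06, 21.29, 11.74 and 18.19 FPKM with anti-PD-L1. It measured 7.72, 11, 17.82 and 19.11 FPKM with exercise and 9.50, 7.84, 12.35 and 12.64 FPKM in control. For Parp9, 3 of 4 anti-PD-L1 libraries lay above all controls.

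Parp14 had the widest spread. It measured 14.54, 6.30, 6.76 and 9.93 FPKM with the combination, and 25.37, 13.57, 6.26 and 10.05 FPKM with anti-PD-L1. It measured 4.36, 5.92, 10.34 and 13.13 FPKM with exercise and 4.98, 5.14, 8.37 and 7.05 FPKM in control. Parp12 measured 19.90, 14.54, 15.94 and 17.12 FPKM with the combination, and 30.58, 20.78, 13.23 and 16.02 FPKM with anti-PD-L1. It measured 12.43, 14.23, 16.95 and 17.77 FPKM with exercise and 12.37, 10.94, 17.55 and 13.25 FPKM in control. The groups of both genes overlapped in every pairing.

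**Figure D1:**
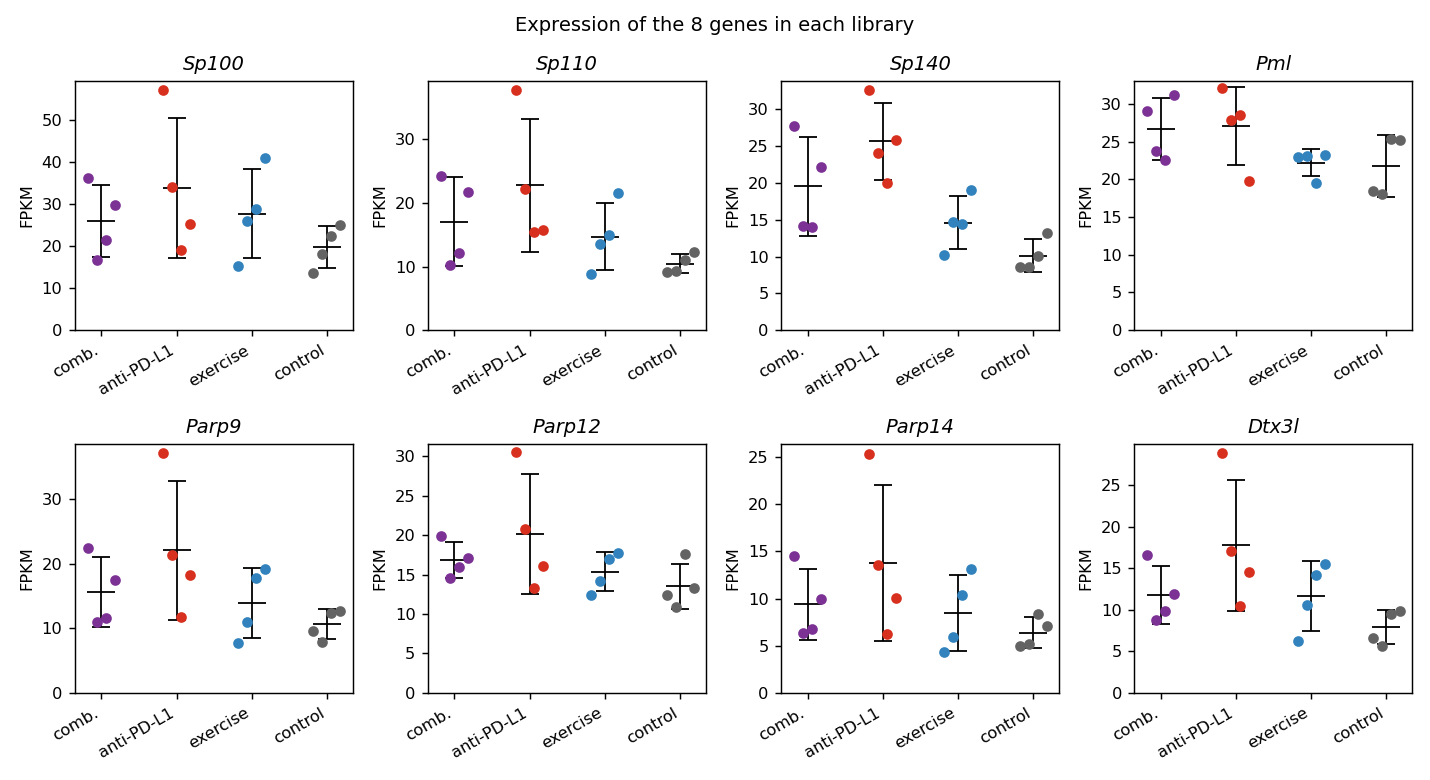
FPKM of each gene (vertical axes, from 0) in the 4 libraries of each group, with the mean and SD as bars; "comb." stands for the combination. Sp140 in anti-PD-L1 libraries lies between 20.03 and 32.61 FPKM, above all exercise and control libraries, while the groups of Sp100, Pml, Parp12 and Parp14 overlap.

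The same few libraries were high or low in most of the genes. Anti-PD-L1 library 1 was the highest of the 16 in all 8 genes, and combination library 1 ranked 2 or 3 in all 8. Controls 1 and 2 were among the 4 lowest libraries in all 8 genes, and exercise library 1 in 7. Exercise library 4 was among the 4 highest in 5 genes. Anti-PD-L1 libraries 3 and 4 ranked as low as 13 of 16, in Parp12 and Pml.

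**Figure D2:**
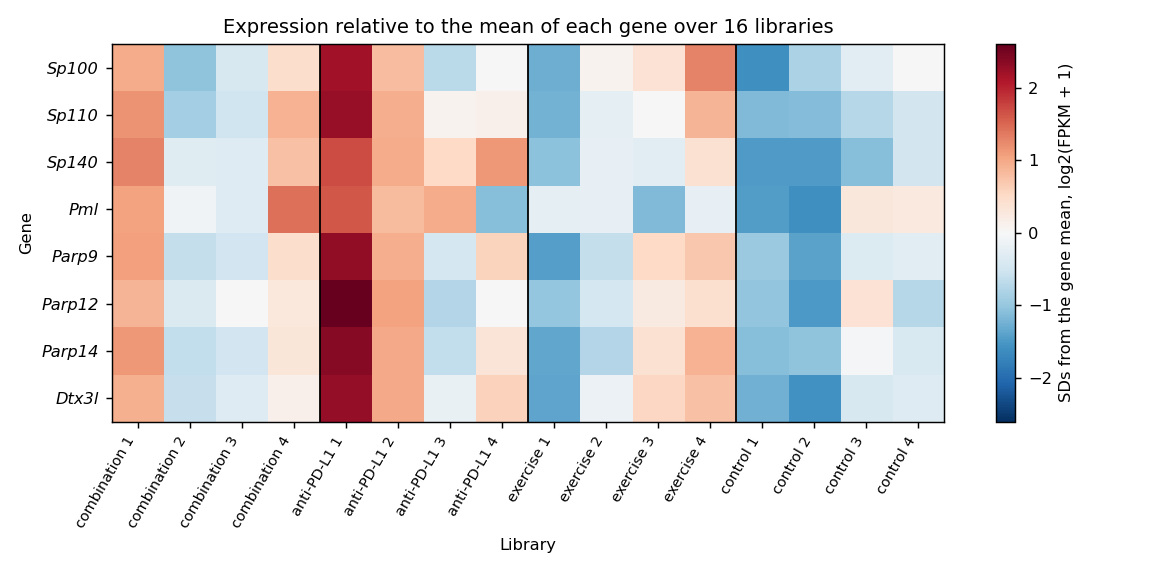
Each cell is the log2(FPKM + 1) of a gene (rows) in a library (columns, by group), in SDs from the mean of that gene over the 16 libraries. Anti-PD-L1 library 1 is the highest in all 8 rows, controls 1 and 2 are low in all 8, and the row of Pml departs from the others in anti-PD-L1 library 4.

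How the genes varied together within groups was tested on log2(FPKM + 1) after each group's mean was taken away, over 28 pairs of genes and 16 libraries. Pearson's r between Parp9 and Dtx3l was 0.98 and Spearman's rho 0.98, each with a permutation p of 1e-05, the smallest that 100000 permutations within groups can give, and an adjusted p of 7e-05 and 9.33e-05. Without the 2 libraries farthest from the median r was 0.97. Between Parp9 and Parp14 r was 0.98 (permutation p = 3e-05, adjusted p = 7e-05), rho was 0.96 (permutation p = 4e-05, adjusted p = 0.000102), and r was 0.97 without the 2 farthest libraries. Between Sp100 and Sp110 r was 0.95 (permutation p = 1e-05, adjusted p = 7e-05), rho was 0.98 (permutation p = 1e-05, adjusted p = 9.33e-05), and r was 0.93 without the 2 farthest libraries. Over the 21 pairs without Pml r lay between 0.67 and 0.98, and the adjusted p passed 0.05 for all 21. Over the 7 pairs with Pml r lay between 0.43 and 0.60, and 1 pair passed, Sp110 with Pml, at r = 0.60 (permutation p = 0.0312, adjusted p = 0.0397) and rho = 0.64 (permutation p = 0.0123, adjusted p = 0.0157). Without the 2 farthest libraries the r of this pair was 0.62. By Spearman's rho 5 of the 7 pairs with Pml passed, all but those with Parp9 and Parp14. Pairs of other genes were not tested, so how usual such correlations are in these libraries is unknown.

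Across the 16 libraries and with the groups left in, the genes whose pattern was most like the mean of the members were Trim21 (r = 0.98), Ifi44 (0.97), Gm7609 (0.97), Tor3a (0.97) and Gm38510 (0.97). Of the single members, Parp14 was most like Isg15, a ubiquitin-like protein that interferon induces (r = 0.98), Parp12 most like Ifi35 (0.96), and Pml most like Zbtb32 (0.88), the lowest of the 8 closest likenesses. Sp110 was most like A530032D15Rik (0.97), Sp100 most like LOC101055758 (0.96) and Sp140 most like LOC100041057 (0.95). The A530032D15Rik transcript is identical to that of Sp140 at 98.5% over 861 bases, and the part of shared reads was not tested. All these likenesses are descriptions over libraries that share groups, with no test.

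The first comparison asked whether antibody alone changed these genes. Sp140 rose to 25.6 ± 5.24 FPKM in anti-PD-L1 tumours, against 10.1 ± 2.22 in control tumours (SD, n = 4 each). Its log2 fold change was 1.26 ± 0.22 (standard error), with a 95% interval from 0.79 to 1.74. Its adjusted p was 0.0338 in limma with Benjamini-Hochberg adjustment over 11868 genes. It was the only one of the 8 to pass, where 0.16% of all tested genes passed as higher. Fold changes are on the log2(FPKM + 1) scale, which understates those of low genes.

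The other 7 genes had means above those of control without passing, so all 8 log2 fold changes were above 0, beside 42.3% of all tested genes. Dtx3l averaged 17.7 ± 7.88 FPKM in anti-PD-L1 tumours and 7.895 ± 2.06 in control tumours, with a log2 fold change of 1.02 ± 0.30 (standard error) and an adjusted p of 0.0928 in limma. Sp110 averaged 22.8 ± 10.4 FPKM with anti-PD-L1 and 10.4 ± 1.5 in control, at 0.98 ± 0.31 and an adjusted p of 0.107 in limma. Parp9 was at 0.90 ± 0.33, Parp14 at 0.87 ± 0.38, Sp100 at 0.67 ± 0.34, Parp12 at 0.50 ± 0.20 and Pml at 0.30 ± 0.15, with adjusted p between 0.134 and 0.252 in limma. The median of the 8 was 0.89, beside -0.04 over all tested genes. Before adjustment 6 of 8 had p under 0.05 as higher, beside 7.77% of all tested genes, and the exceptions were Sp100 and Pml. For 3 of 8, Sp140, Sp110 and Dtx3l, the 2 groups did not overlap, with anti-PD-L1 higher, beside 3.57% of all tested genes.

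The call of Sp140 was lost in several fits without a single library, while its fold change moved little. Sp140 kept a log2 fold change between 1.14 and 1.39 when any single library was left out. Its adjusted p in limma was 0.0944, 0.145 and 0.0649 without control 1, 2 or 3, and 0.0634, 0.0692 and 0.117 without anti-PD-L1 library 1, 2 or 4. Without controls 1 and 2 together Sp140 was at 1.06 with an adjusted p of 0.413 in limma, and the median of the 8 genes was 0.64. Without anti-PD-L1 library 1 the median was 0.58. In that fit Parp12 was at 0.28, Sp100 at 0.38, Parp14 at 0.54 and Parp9 at 0.63, and each of the 8 genes had its lowest value among the fits without a single library. Over the 27 alternative fits Sp140 passed in 19, with adjusted p between 0.0095 and 0.413, and all 8 genes stayed above 0 in each.

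**Figure D3:**
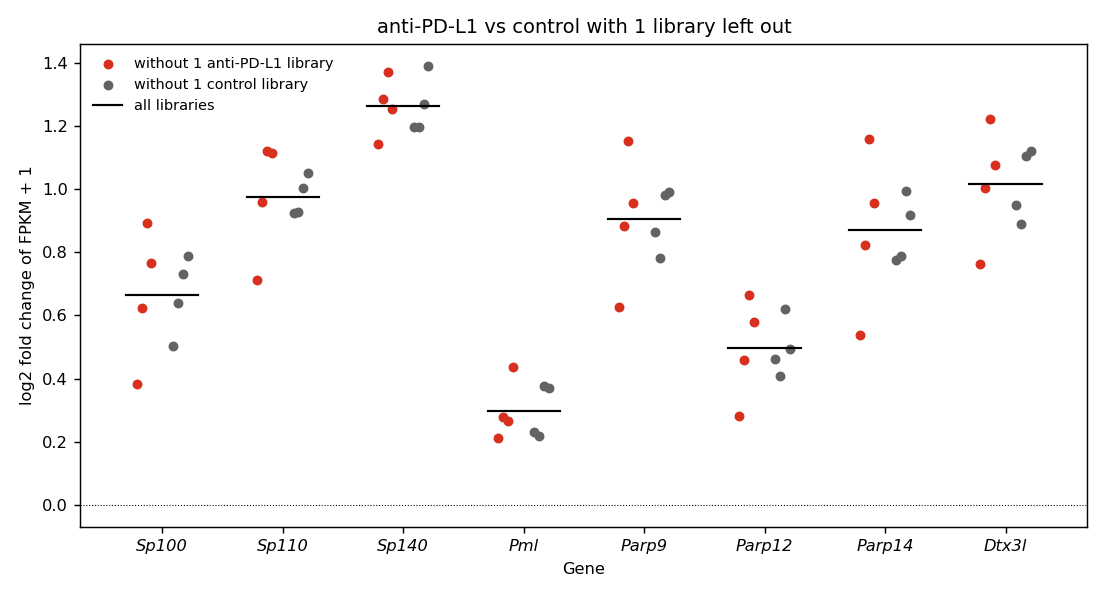
Log2 fold change of FPKM + 1 for anti-PD-L1 against control (vertical axis) in each gene; black lines show all libraries, red points the fits without 1 anti-PD-L1 library and grey points those without 1 control. The lowest point of each gene is the fit without anti-PD-L1 library 1, and all points of Sp140 lie between 1.14 and 1.39.

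Sp140 and its neighbours have near copies in the mouse genome. At 90% identity over at least 200 bases, transcripts of 8 other GENCODE genes matched Sp140, 3 matched Sp100, 1 matched Sp110 and 1 matched Dtx3l, the last being Spc24 at 91.0% over 201 bases. Of those of Sp140, C130026I21Rik, identical at 96.0% over 979 bases, averaged 14.7 ± 8.95 FPKM in combination tumours, 20.8 ± 11.1 in anti-PD-L1 tumours, 9.77 ± 5.23 in exercise tumours and 4.23 ± 3.88 in control tumours (SD, n = 4 each). A530032D15Rik averaged 3.18 ± 2.18 FPKM in anti-PD-L1 and 0.608 ± 0.270 in control tumours, and Gm2427 was under 0.5 FPKM in all libraries. The match of Sp110, Gm16026, was the longest of all, at 97.6% over 2609 aligned bases, where the Sp110 transcript has 2583. Gm16026 had no entry, so its level is unknown. Reads that fit several copies can be split between them, so the values of Sp140, Sp100, Sp110 and Dtx3l are uncertain for that reason.

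Markers of other cells and cell cycle genes were read in the same comparison. The 14 T and NK cell markers with an entry, of 16 listed, summed to between 23.06 and 53.82 FPKM in anti-PD-L1 libraries, and to between 12.91 and 17.39 in controls. In anti-PD-L1 libraries 1 to 4 these sums were 53.82, 25.22, 42.57 and 23.06 FPKM. The 8 genes summed to 281.28, 180.83, 124.86 and 145.32 FPKM in the same libraries. Library 1 was thus highest in both, while library 3 was second in the markers and lowest in the 8 genes. Of the 6 tested markers of this list 1 rose, Nkg7, beside 0.16% of all tested genes, and 5 were above 0, beside 42.3%. Gzmb, which encodes granzyme B, averaged 11.8 ± 5.28 FPKM in anti-PD-L1 tumours and 2.53 ± 1.23 in control tumours, without passing in limma. Prf1 averaged 9.145 ± 5.33 and 1.58 ± 1.11 FPKM, also without passing, and Nkg7 4.00 ± 2.14 and 1.005 ± 0.404 FPKM. The whole list summed to means of 36.17 and 14.29 FPKM, so most of its difference lay in Gzmb, Prf1 and Nkg7. Ptprc, a gene of all leukocytes, was the one tested marker of this list below 0. It averaged 3.36 ± 0.715 FPKM in anti-PD-L1 tumours and 4.81 ± 2.09 in control tumours (log2 fold change -0.36 ± 0.24, adjusted p = 0.377 in limma). In exercise against control Ptprc was at -0.59 ± 0.24, with an adjusted p of 0.228 in limma. Cd2, Ncr1 and Klrb1c were under 1 FPKM in each library. The 14 monocyte and macrophage markers summed to between 387 and 804 FPKM in anti-PD-L1 libraries, and to between 494 and 1998 in controls, where the highest sums were those of controls 1 and 2, at 1555 and 1998. Of these 14, 0 passed in limma. An unadjusted p under 0.05 was found for 8 as lower, beside 15.7% of all tested genes, and for 1 as higher, beside 7.77%. Cd79a, Cd79b, Ms4a1 and Pax5, markers of B cells, were under 1 FPKM in each library, and so were Flt3, Xcr1, Clec9a and Siglech of the 7 dendritic cell markers. Of 10 cell cycle genes 0 passed in limma, with a median of -0.60. All 10 had an unadjusted p under 0.05 as lower, beside the same 15.7% of all tested genes. For 7 of these 10 each anti-PD-L1 library was below each control, beside 7.26% of all tested genes. Bub1b, a spindle checkpoint kinase, was at -0.61 ± 0.12, with an adjusted p of 0.0521 in limma. In the fibroblast, endothelial and neutrophil lists 0 genes passed in limma. Lum and Col1a1, matrix genes of fibroblasts, were at -1.73 ± 0.49 and -1.35 ± 0.56, where the median of their 7 markers was -0.04. Kdr, an endothelial receptor, was at -0.74 ± 0.27, the lowest of 5 tested endothelial markers, whose median was -0.39. Mmp8, a neutrophil collagenase, was at 1.30 ± 0.28, the highest of 5 tested neutrophil markers, whose median was 0.09. The part of other cells and of cell division in the values of the 8 genes was not tested, and in bulk tumours fewer cells of a type and less RNA per cell cannot be told apart.

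With exercise alone none of the 8 genes passed. Sp140 averaged 14.6 ± 3.59 FPKM in exercise tumours and 10.1 ± 2.22 in control tumours, a log2 fold change of 0.48 ± 0.22 with an adjusted p of 0.274 in limma. Dtx3l was at 0.47 ± 0.30, Sp100 at 0.42 ± 0.34 and Sp110 at 0.41 ± 0.31. Pml was at 0.04 ± 0.15, with a 95% interval of -0.28 to 0.36. With limma 0 of 8 passed, beside 0% of all tested genes, and 1 of 8, Sp140, had an unadjusted p under 0.05 as higher, beside 8.03% of all tested genes. The median was 0.36, beside -0.02 over all tested genes, and all 8 were above 0, beside 46.2% of all tested genes. For Sp100, Sp110, Sp140 and Dtx3l exercise libraries 2, 3 and 4 lay above all 4 controls, while library 1 was below the highest control. Without exercise library 1 the median was 0.58, without exercise library 4 it was 0.18, and in both fits 0 of 8 passed in limma. Without controls 1 and 2 the median was 0.10, and Pml and Parp12 were at -0.18 and -0.00.

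In the combination Sp140 averaged 19.5 ± 6.69 FPKM, against 10.1 ± 2.22 in control tumours, a log2 fold change of 0.85 ± 0.22 with an adjusted p of 0.572 in limma. Sp110 was at 0.59 ± 0.31, Dtx3l at 0.52 ± 0.30, Parp9 at 0.49 ± 0.33 and Pml at 0.28 ± 0.15. With limma 0 of 8 passed, beside 0% of all tested genes, and Sp140 was the only member with an unadjusted p under 0.05, beside 3.01% of all tested genes as higher. It was also the only one of the 8 whose combination libraries all lay above the controls, beside 1.46% of all tested genes. The median was 0.47, beside -0.03 over all tested genes, and all 8 were above 0, beside 41.9% of all tested genes. It was 0.27 without combination library 1 and 0.21 without controls 1 and 2. The T and NK cell markers summed to between 17.25 and 34.61 FPKM in combination libraries, between 14.31 and 19.62 in exercise libraries and between 12.91 and 17.39 in controls, and their part was not tested. Combination libraries 1 and 4 were the higher pair in each of the 8 genes. The 3 comparisons with control share the control libraries, and the member medians were 0.47 with the combination, 0.89 with anti-PD-L1 and 0.36 with exercise.

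**Figure D4:**
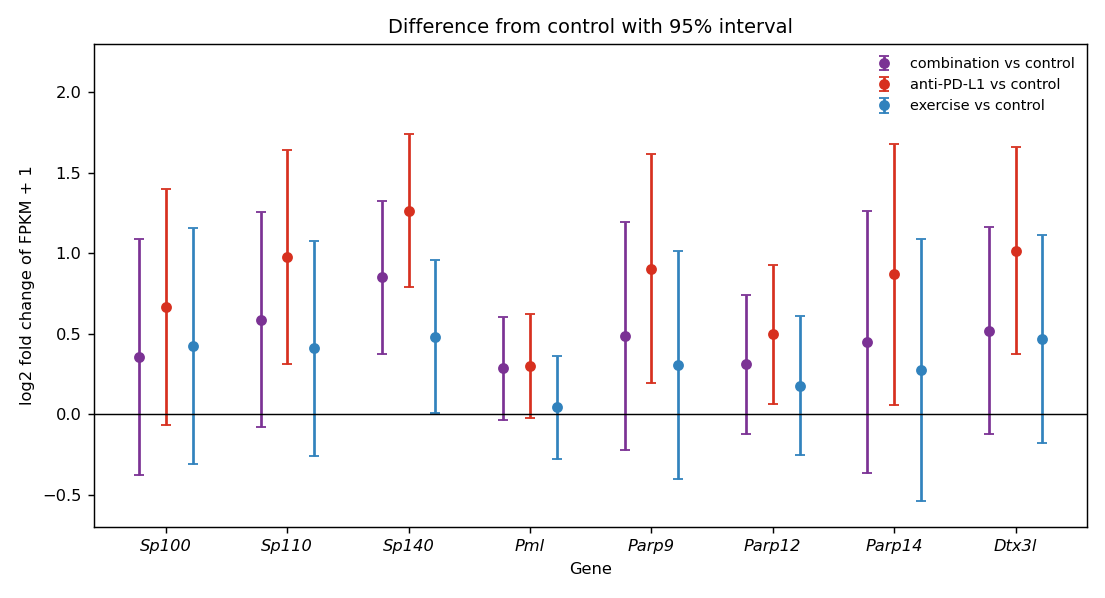
Log2 fold change of FPKM + 1 against control (vertical axis) with its 95% interval from limma, for each gene in the combination, anti-PD-L1 and exercise groups. The points lie above 0 in all 8 genes, and the interval of Sp140 with anti-PD-L1, from 0.79 to 1.74, is the farthest from 0.

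The combination was set against anti-PD-L1 alone to see what exercise added to the antibody. All 8 log2 fold changes were below 0, from -0.50 for Dtx3l to -0.01 for Pml, with a median of -0.40 beside 0.02 over all tested genes, of which 44.8% were below 0. In limma 0 of 8 passed, beside 0% of all tested genes, and 0 of 8 had an unadjusted p under 0.05, beside 1.69% of all tested genes as lower. Sp140 averaged 19.5 ± 6.69 FPKM in the combination and 25.6 ± 5.24 in anti-PD-L1 tumours (SD, n = 4 each), at -0.41 with a 95% interval of -0.89 to 0.06. The intervals of the other 7 also held 0, and that of Parp14 reached from -1.23 to 0.39. Without anti-PD-L1 library 1 the median was -0.11.

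The antibody on top of exercise was tested by the combination against exercise. Sp140 averaged 19.5 ± 6.69 FPKM in the combination and 14.6 ± 3.59 in exercise tumours, a log2 fold change of 0.37 with a 95% interval of -0.11 to 0.85. Pml was at 0.24 (-0.08 to 0.56), and Sp100 was at -0.07, the only member below 0. In limma 0 of 8 passed, beside 0% of all tested genes, and 0 of 8 had an unadjusted p under 0.05, beside 6.7% as higher. The median was 0.18 beside -0.02 over all tested genes, and 7 of 8 were above 0, beside 46.1% of all tested genes. Without exercise library 1 the median was -0.04. Between both single treatments, anti-PD-L1 against exercise, Sp140 was at 0.78 ± 0.22 with an adjusted p of 0.0764 in limma, and 0 of 8 passed, beside 0.8% of all tested genes as higher. Each anti-PD-L1 library was above each exercise library for 1 of 8, Sp140, beside 4.42% of all tested genes. The median was 0.56, and it was 0.28 without anti-PD-L1 library 1 and 0.33 without exercise library 1.

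Averaged over both activity levels, the antibody raised Sp140, with 22.6 ± 6.45 FPKM in 8 libraries with antibody and 12.3 ± 3.66 in 8 without. The log2 fold change was 0.82 ± 0.16, and the adjusted p was 0.023 in limma. Its 2 parts were unlike, at 1.26 without exercise and 0.37 with exercise, the latter with a 95% interval of -0.11 to 0.85. Of the 8 genes 1 passed, beside 1.24% of all tested genes as higher. Sp110 was at 0.58 ± 0.22, Parp9 at 0.54 ± 0.23, Dtx3l at 0.53 ± 0.21, Parp14 at 0.52 ± 0.27, Parp12 at 0.31 ± 0.14, Sp100 at 0.30 ± 0.24 and Pml at 0.27 ± 0.11, with adjusted p between 0.15 and 0.481 in limma. Before adjustment 6 of 8 had p under 0.05, beside 8.15% of all tested genes as higher. Sp140 was past the threshold in 22 of 26 alternative fits. The exceptions were without control 2, at an adjusted p of 0.0565, without exercise library 2, at 0.0528, without anti-PD-L1 library 4, at 0.05, and without controls 1 and 2, at 0.127, all in limma.

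Whether exercise acted differently with and without the antibody was tested as an interaction. All 8 estimates were below 0, beside 45.1% of all tested genes, with a median of -0.73. Leaving out controls 1 and 2 gave a median of -0.47, and leaving out anti-PD-L1 library 1 gave -0.45. They were -0.96 ± 0.43 for Dtx3l, -0.89 ± 0.32 for Sp140, -0.80 ± 0.44 for Sp110, -0.73 ± 0.48 for Sp100 and -0.06 ± 0.21 for Pml. In limma 0 of 8 passed, beside 0% of all tested genes, and the lowest adjusted p of a member was 0.364, that of Sp140. Before adjustment Sp140 and Dtx3l had p under 0.05, 2 of 8 beside 5.11% of all tested genes as lower. Averaged over both antibody levels, exercise gave 4 estimates above and 4 below 0, beside 49.2% of all tested genes above 0. In limma 0 of 8 passed, beside 0% of all tested genes, and 0 of 8 had an unadjusted p under 0.05, beside 8.2%.

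The genes that work with the members were described in the comparison of anti-PD-L1 with control. Of 38 other interferon-induced genes tested, all 38 had log2 fold changes above 0, beside 42.3% of all tested genes, with a median of 1.21. Past the threshold 3 rose, beside 0.16% of all tested genes. They were the immunoproteasome subunits Psmb9 and Psmb8 and the peptide transporter Tap1. The members, at a median of 0.89, lay lower on this scale. Of 18 genes for interferon receptors, kinases, STAT and IRF factors 0 passed in limma, with a median of 0.25. An unadjusted p under 0.05 as higher was found for 6 of the 18, beside 7.77% of all tested genes. Irf1, a transcription factor of interferon signalling, averaged 64.2 ± 19.4 FPKM with anti-PD-L1 and 33.1 ± 5.43 in control, with an adjusted p of 0.07 in limma. Averaged over both activity levels, Irf1 rose by 0.69 ± 0.16, with an adjusted p of 0.0382 in limma.

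Lists of families and partners had medians nearer to 0 than that of the members, although some of their genes, such as Parp10 and Parp1, lay farther from 0 than their list's median. Of 13 other PARP genes 0 passed in limma for anti-PD-L1 against control, with a median of 0.11. An unadjusted p under 0.05 was found for 3 as higher and 1 as lower, beside 7.77% and 15.7% of all tested genes. Parp10, which attaches single ADP-ribose units, was highest at 0.65 ± 0.17 with an adjusted p of 0.0762 in limma, and all its anti-PD-L1 libraries were above the controls. Parp3 was at 0.49 ± 0.15 with an adjusted p of 0.0923 in limma, and Parp1, the DNA damage enzyme, was lowest at -0.46 ± 0.17 with an adjusted p of 0.13. Zc3hav1, which encodes an inactive PARP with antiviral zinc fingers, was at 0.11 ± 0.11. Of 20 partners of PML bodies 0 passed in limma and 4 had an unadjusted p under 0.05, all lower, beside 15.7% of all tested genes, with a median of -0.11. Daxx, a histone chaperone of these bodies, was at 0.26 ± 0.15, the highest of the 20. Of 9 tested genes that remove or read ADP-ribose, 0 passed in limma and 2 had an unadjusted p under 0.05, both lower, beside the same 15.7%, with a median of -0.03. Of the 3 tested Deltex relatives of Dtx3l 0 passed in limma or had an unadjusted p under 0.05, with log2 fold changes between 0.16 and 0.33.

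**Figure D5:**
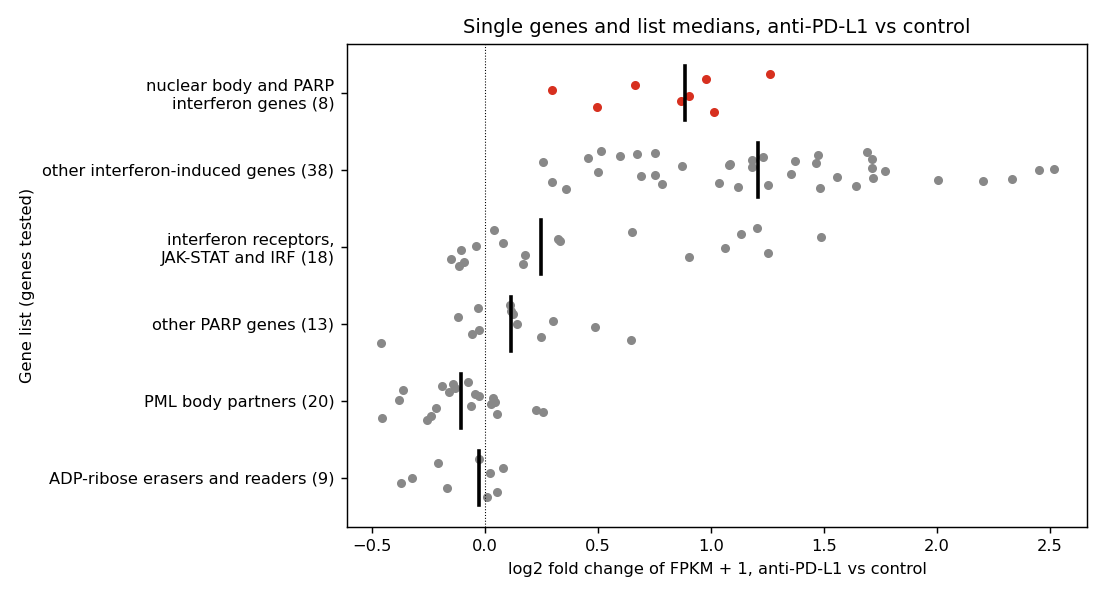
Log2 fold change of FPKM + 1 for anti-PD-L1 against control (horizontal axis) of each tested gene, by list (vertical axis, number tested in parentheses); red marks the 8 genes described, and black bars are medians. The median is 0.89 for the 8 genes, 1.21 for other interferon-induced genes and -0.11 for partners of PML bodies.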

How the data were processed

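Per the file headers, the authors deposited FPKM per gene symbol, with 2 decimals. The submitters' processing notes list HISAT, Bowtie2 and GRCm38.p6 without roles or versions, and no source states the counting program. Among 660 low genes, 39.7% of 9043 values fell within 0.15 of a whole multiple of the gene's smallest value, so reads were not recovered, and depth is unknown. The labels do not say that replicates are separate animals. The p-values therefore measure the spread between samples, and this may be technical.

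Values were modelled as log2(FPKM + 1) with limma 3.58.1 (R 4.3.3; trend and robust settings) by group, over 11868 genes reaching 1 FPKM in 4 or more libraries. Benjamini-Hochberg adjustment ran over all of them per contrast, with a threshold of 0.05. The model was tested on simulated data. The members, gene lists and tests were chosen with earlier results of these data known. The text names all members, the genes most like them by Pearson's r, near copies by sequence, and of each list at most the 4 genes with the smallest p for anti-PD-L1 against control, beside Irf1, Parp10, Zc3hav1, Daxx and Ptprc; markers under 1 FPKM were named after their values were seen. Alternatives changed the limma settings, scaling, filter, pseudocount, samples, replicate block and library weights, or left libraries out. Coordinates and promoters came from RefSeq (GRCm38.p6), and near copies from blastn 2.17.0 on GENCODE transcripts of GRCm38.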

Additional observations from a re-analysis of the deposited data

Results flagged for a closer look

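In the exercise group Pml measured 19.56 FPKM in library 3, while libraries 1, 2 and 4 measured 22.98, 23.14 and 23.19 FPKM. The gap to the nearest library was 0.947 of the range of the group on the log2(FPKM + 1) scale, above the 95% critical value of Dixon's test for 4 samples. It was the only one of 32 gene and group sets that stood out in this way, and chance gives about 1 in 20.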

How the results depend on the processing

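For anti-PD-L1 against control the number of members past the threshold was 1, and it was 0 with no filter on low values, 3 with library weights (Sp110, Sp140 and Dtx3l), 0 without controls 1 and 2 together, and between 0 and 1 with 1 library left out. For the antibody over both activity levels it was 1, and it was 2 with library weights (Sp140 and Pml), 0 without controls 1 and 2, and between 0 and 1 with 1 library left out. For exercise against control and for anti-PD-L1 against exercise it was 0, and 1 with library weights, Sp140 in both. The cause of these changes was not tested. In the other comparisons it was 0 in all fits run. The fit to only the groups compared was not run for the averages and the interaction, which need all groups.

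Over all tested genes the number past the threshold moved between 4 and 835 around 30 for anti-PD-L1 against control, between 9 and 823 around 188 for anti-PD-L1 against exercise, and between 28 and 639 around 286 for the antibody over both activity levels. Where it was 0 it reached 2274 for exercise against control, 222 for the combination against exercise and 223 for the interaction, and stayed 0 for the combination against control and against anti-PD-L1.

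Directions of uncalled values near 0 turned in some fits. Without controls 1 and 2 Pml and Parp12 were at -0.18 and -0.0050 for exercise against control, and Pml at 0.17 for the interaction. With library weights Parp9, Parp14 and Dtx3l were at -0.019, -0.022 and -0.13 for the combination against exercise. With 1 library left out, Pml ranged from -0.039 to 0.12 for exercise against control, from -0.15 to 0.072 for the combination against anti-PD-L1 and from -0.19 to 0.030 for the interaction. Parp12 ranged from -0.35 to 0.030 for the combination against anti-PD-L1, and Sp100 from -0.041 to 0.47 for anti-PD-L1 against exercise. For the combination against exercise Sp100 ranged from -0.32 to 0.14, Sp110 from -0.025 to 0.38, Parp9 from -0.052 to 0.35, Parp14 from -0.064 to 0.40 and Dtx3l from -0.19 to 0.20.

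Between same-numbered libraries of different groups, 6 of 24 correlations of their deviations were over 0.1, and they ranged from -0.62 to 0.344. Libraries with different numbers were not compared, so this cannot settle whether the numbers pair the samples. With the replicate number as a block 1 member passed for anti-PD-L1 against control, Sp140 at an adjusted p of 0.0379 in limma, and 15 genes passed in all, where 30 did without the block. Depth is unknown and sets no limit that can be given, and 4 libraries a group limit the precision.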
